A study of Mus with 16 samples.

Results

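CastB6 and SpretB6 are lines of mouse epiblast stem cells, which are pluripotent and resemble the post-implantation epiblast. Both are F1 hybrids that share C57BL/6J as a parent strain. In CastB6 the other parent strain is CAST, as strain names are commonly used, which was derived from the house mouse subspecies Mus musculus castaneus, and in SpretB6 it is SPRET, from the separate species Mus spretus. The 4 libraries titled CastB6 were compared with the 4 titled SpretB6, which are 8 of the 16 libraries of bulk RNA-seq from ribodepleted total RNA. The other 8 come from MolfB6 and PwkB6, with 4 libraries each, whose titles pair Molf and Pwk with B6 in the same way. How the relatedness of these strains to CAST and SPRET bears on any likeness in level was not tested. The stated purpose of the bulk libraries was to compare how well alleles can be mapped in bulk and in single-cell RNA-seq. The labels refer to an earlier study for growth and treatment, and they give no sex, passage or cross direction. They also do not say whether libraries of a cross came from separate lines, cultures or animals. The p-values therefore describe the spread among these libraries alone, and that spread may be technical. In bulk RNA a lower level can mean fewer cells of a type or less RNA per cell, and these cannot be told apart.

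An F1 hybrid cell carries a haploid genome from each parent, so a gene's total RNA is the sum of what both parental alleles give. The C57BL/6J allele is common to both crosses, and a difference in RNA between them can therefore sit in the wild-derived allele or in the cellular setting that both alleles share. How well reads of each allele match the transcript set used was not tested, and its part in a difference cannot be told apart. The deposited tables give totals without alleles. Every level is given per annotated transcript, and a gene may have several. Reads that match several transcripts were divided among them as estimates, and the tables carry no measure of how uncertain that division was. The tables do not pair transcript IDs with gene names, and 0 of 116747 IDs could be matched to the gene table used here, so no gene name or function is attached to any transcript. The labelled cell type was not checked against marker genes for the same reason. The transcripts described below are the largest, the most abundant and the longest differences. They were taken among calls whose TPM in the 4 CastB6 and 4 SpretB6 libraries do not overlap, so that the separation of the libraries in each of them was fixed by the choice. Some had reads almost only in a single cross and passed the filter on counts through that cross alone. The adjusted p of a transcript picked in these ways is no separate support for its difference. The 4 with the largest folds are given by ID and the others by their length.

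Library totals were 63540992 ± 5734574 estimated counts for CastB6, against 59695175 ± 12824900 for SpretB6 (SD, n = 4 each). Reads fell on 61208 to 64356 transcripts in CastB6 and on 62644 to 66259 in SpretB6. The closest library by Spearman correlation of log2 CPM, the count scaled to library size, among the 8, was of the same cross in 8 of 8 cases. The mean correlation was 0.8892 over the 6 pairs within CastB6, 0.9113 over the 6 within SpretB6, and 0.8585 over the 16 pairs between them. CastB6 libraries lay further from each other. The median SD of log2 CPM over tested transcripts was 0.451 in CastB6 and 0.362 in SpretB6, and CastB6 had the higher median in all 5 classes by length and all 4 by level.

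CastB6 and SpretB6 differed in 3430 of 56721 tested transcripts, or 6.05% (edgeR quasi-likelihood test, Benjamini-Hochberg adjusted p under 0.05). Of these, 1674 were higher in CastB6 (2.95% of those tested) and 1756 were lower (3.10%). The numbers were close to even, but the sizes were not. The median log2 fold change, CastB6 minus SpretB6, was 1.14 among the transcripts higher in CastB6 and -1.64 among those lower in it. Differences of over 2-fold made up 57.0% of the higher and 72.8% of the lower transcripts, 2234 in all or 3.94% of those tested. Differences of over 8-fold numbered 234 of the 1674 higher and 606 of the 1756 lower transcripts. DESeq2 called 6256 transcripts at the same adjusted p, and edgeR on only the 8 libraries, with the numbers in the titles as a block, called 797. The lead of the lower transcripts past 8-fold was present under all 19 alternatives run, including each library left out. The even split of all calls was not stable to the scaling. With limma on log2(TPM + 0.5), 35.7% of the calls were higher in CastB6, and with the median of each library subtracted from those values 60.2% were, against 48.8% here.

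**Figure D1:**
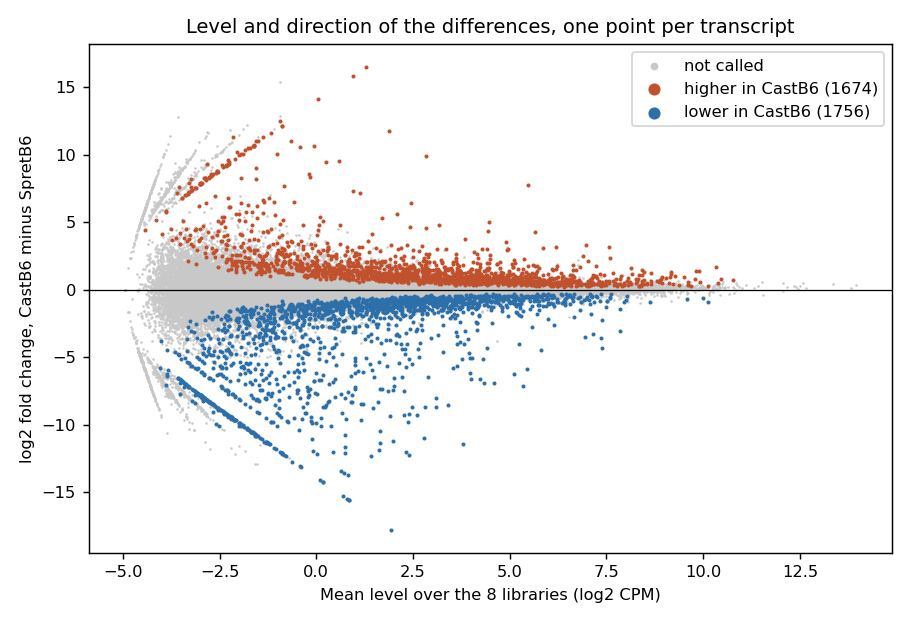
Each point is a tested transcript, with its mean log2 CPM over the 8 libraries on the horizontal axis and its log2 fold change, CastB6 minus SpretB6, on the vertical axis. The 1674 transcripts higher in CastB6 include 234 past a log2 fold change of 3, while the 1756 lower in CastB6 include 606 past -3, drawn out into the lower part of the plot.

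Separation between libraries gave a similar picture for the calls. Among the called transcripts, TPM of the 4 CastB6 libraries and of the 4 SpretB6 libraries did not overlap in 3263, or 5.75% of all those tested. CastB6 stood above in 1531 of these and below in 1732. Without regard to the test, the 4 and 4 libraries did not overlap in 9393 transcripts, 16.6% of those tested, with CastB6 above in 3330 (5.87%) and below in 6063 (10.7%). TPM was not rescaled between libraries, whereas the edgeR fit scaled library sizes by the trimmed mean of M values (TMM). The TMM factors were 0.879 to 1.003 in CastB6 and 0.959 to 1.030 in SpretB6.

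Direction changed with level. Transcripts with a mean of 100 TPM or more over the 8 libraries were called in 182 of 1334 cases, 115 higher and 67 lower in CastB6, so 63.2% of these calls were higher. For a mean of 10 to 100 TPM 56.7% of 822 calls were higher, for 1 to 10 TPM 46.0% of 1559, and under 1 TPM 43.4% of 867. The centred TPM values gave 66.0% at 100 TPM or more and 62.5% under 1 TPM, so that the difference between the highest and lowest class depended on the scaling. Leaving out any library lowered the share of calls at 100 TPM or more that were higher in CastB6. It ran from 53.6% without SpretB6 replicate 5 to 62.4% without CastB6 replicate 6.

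Size and precision also followed level. In the highest quartile of tested transcripts by mean level over the 16 libraries, with a median of 1410 reads per library, the median standard error of the log2 fold change was 0.178 and 9.29% were called. In the lowest quartile the median was 10.5 reads, the standard error 1.223 and the share called 3.92%. Every call in the lowest quartile exceeded 2-fold. Among the 838 transcripts higher in CastB6 in the highest quartile, the median log2 fold change was 0.75, and among the 480 lower in CastB6 it was -0.81. The largest folds at high level were again lower in CastB6, with 39 past 8-fold against 21 higher.

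Over all levels together, transcripts lower in CastB6 had a shorter median length than those higher in it. The median length was 2075 bases for the 1674 higher transcripts and 1627 bases for the 1756 lower ones, beside 1838 bases over all tested transcripts. The middle 50% of lengths ran from 962.5 to 3582.5 bases among the higher and from 770.5 to 3136.0 bases among the lower. With a filter of 5 CPM in 4 libraries this order turned, at 2276.5 bases for the higher and 2299.0 bases for the lower. The order also turned with level. In the lowest quartile by level the medians were 1001.5 bases for the higher and 804.0 for the lower, and in the second 1640.0 and 1256.5. In the third quartile they were 1817.5 bases for the higher and 2123.5 for the lower, and in the highest 2605.5 and 2888.0. Transcripts under 500 bases were called in 325 of 4289 cases, or 7.58%, with 118 higher and 207 lower in CastB6, so 36.3% of these calls were higher. That share was 45.9% at 500 to 1000 bases, 47.6% at above 1000 to 2000 bases, 51.7% at above 2000 to 4000 bases and 55.6% over 4000 bases.

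Among the calls, fold size fell with length in both directions. Among transcripts higher in CastB6, 29.7% of the calls under 500 bases were past 8-fold, against 4.22% of those over 4000 bases. Among transcripts lower in CastB6, 72.0% of the calls under 500 bases were past 8-fold, 49.5% at 500 to 1000 bases, 43.8% at above 1000 to 2000 bases, 13.8% at above 2000 to 4000 bases and 8.68% over 4000 bases. The median log2 fold change of the lower calls was -6.29 under 500 bases and -1.03 over 4000 bases, while that of the higher calls was 1.80 and 0.88. Across the 3430 called transcripts the Spearman correlation of length with the absolute log2 fold change was -0.413, and across all 56721 tested transcripts it was -0.111. The median SE was 0.588 under 500 bases and 0.304 over 4000 bases, so a short transcript needed a larger fold to be called. Transcripts also share libraries and their length goes with level (rho 0.341 among the called), so the correlation among calls is a description only.

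**Figure D2:**
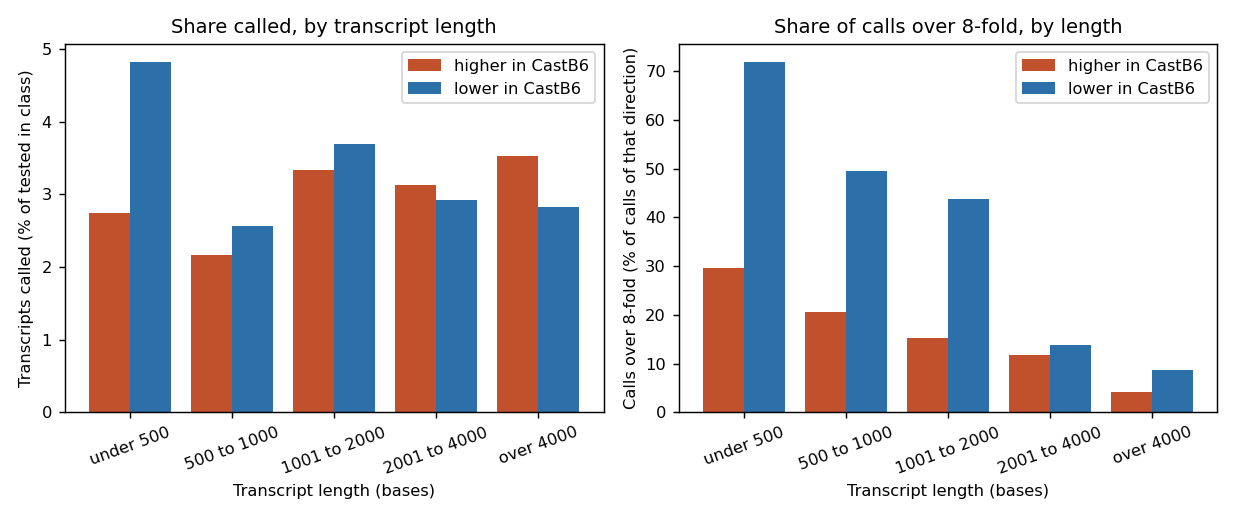
Transcripts are divided into 5 classes by length in bases. Left, the percentage of tested transcripts in each class called higher or lower in CastB6, which under 500 bases was 2.75% higher and 4.83% lower. Right, the percentage of the calls of each direction that exceed 8-fold, highest at 72.0% among the lower calls under 500 bases.

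Since short transcripts were also the less abundant ones by reads, the classes were crossed. In the lowest quartile by level, 31 calls under 500 bases were higher and 113 lower in CastB6, and over 4000 bases 9 were higher and 10 lower. In the highest quartile, 39 calls under 500 bases were higher and 18 lower, and over 4000 bases 219 were higher and 136 lower. Under 500 bases, lower calls thus outnumbered higher calls at low level, and the highest quartile had more higher than lower calls in each of the 5 length classes. The majority in the highest quartile depended on the scaling. Over all lengths 63.6% of its calls were higher in CastB6, against 43.8% on log2(TPM + 0.5) and 73.2% on the centred values. In the lowest quartile these shares were 27.0%, 25.1% and 40.4%. Over all levels, 6.34% of tested transcripts over 4000 bases were called. Leaving out any library lowered this share, to between 3.83% without SpretB6 replicate 3 and 5.08% without CastB6 replicate 1. Under 500 bases 13.9% of the tested transcripts of the highest quartile were called, against 8.82% over 4000 bases.

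Over all tested transcripts, the edgeR fit gave medians close to 0 in each length class. The median log2 fold change was -0.013 under 500 bases, -0.034 at 500 to 1000 bases, -0.023 at above 1000 to 2000 bases, -0.036 at above 2000 to 4000 bases and -0.012 over 4000 bases, beside -0.027 over all. On log2(TPM + 0.5) the medians ran in order of length, at -0.11, -0.10, -0.08, -0.07 and -0.05, and on the centred values at 0.05, 0.05, 0.07, 0.08 and 0.10. Length correlated with log2 fold change at rho 0.007 across the 56721 transcripts and at 0.148 across the called ones. In transcripts over 2000 bases, length exceeded effective length, which allows for fragment size, by a median of 151 ± 2.99 bases for CastB6 libraries, against 152 ± 2.47 bases for SpretB6 libraries (SD, n = 4 each; two-sided exact permutation p = 0.714). An offset for each library's effective length left 3422 calls, of which 3413 were among the 3430.

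The share of all TPM in each length class was close between the crosses. Transcripts of 500 to 1000 bases held 33.3% ± 0.286 of CastB6 TPM, against 32.0% ± 0.239 of SpretB6 TPM (SD, n = 4 each), without overlap between the libraries. The two-sided exact permutation p was 0.0286, the smallest that 4 against 4 libraries can give, and 0.214 after adjustment over 15 measures, so it did not pass. Transcripts under 500 bases held 25.8% ± 0.874 in CastB6 and 26.8% ± 1.05 in SpretB6 (exact permutation p = 0.257), with overlapping libraries. The top 100 transcripts by abundance held 20.9% ± 0.832 of CastB6 reads, against 19.1% ± 0.513 of SpretB6 reads (SD, n = 4 each), again without overlap, with an exact permutation p of 0.0286 and an adjusted value of 0.214.

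**Figure D3:**
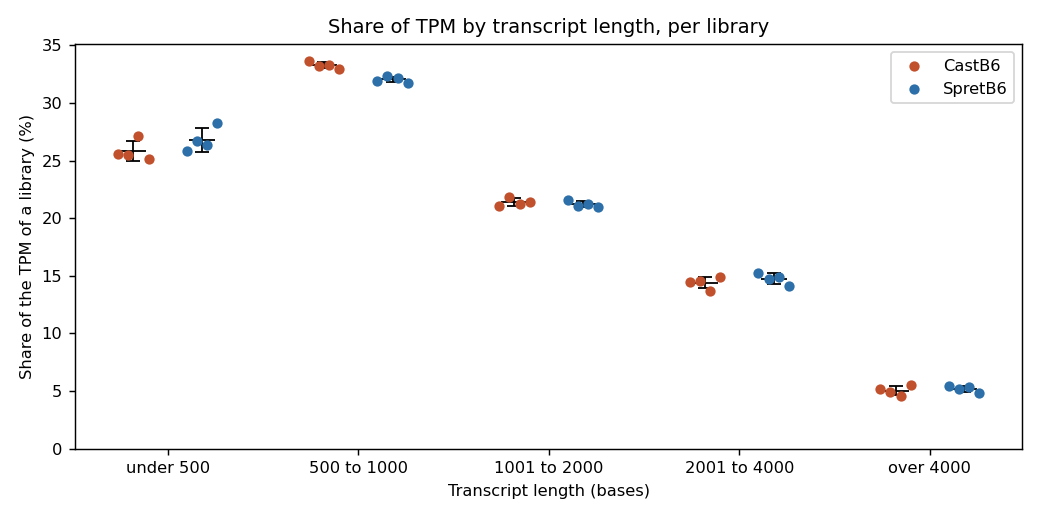
Each point is a library, CastB6 left of SpretB6 in each of the 5 length classes, with the share of its TPM in percent on the vertical axis and the mean and SD of the 4 libraries as bars. The classes differ far more from each other than the crosses do, and only at 500 to 1000 bases do the CastB6 and SpretB6 libraries not overlap.

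The transcripts with the largest folds were short and were listed at 0 in a whole cross. ENSMUST00000118791.2, of 801 bases, had 328, 455, 186 and 316 TPM in CastB6 1, 3, 5 and 6 and 0 reads in all 4 SpretB6 libraries. ENSMUST00000121821.2, of 636 bases, had 190, 357, 284 and 248 TPM in the same CastB6 libraries and 0 reads in SpretB6. Every CastB6 library was high and every SpretB6 library empty. The upper limit of a count of 0 was set at 3 reads over the 4 libraries of the cross together, scaled by library totals, and it covers counting error only. On this basis the first was at least 13700-fold and the second at least 8690-fold higher in CastB6 (edgeR adjusted p = 1.88e-07 and 7.92e-07). In the remaining crosses they parted, as ENSMUST00000118791.2 averaged 285 TPM in MolfB6 and 310 TPM in PwkB6, while ENSMUST00000121821.2 averaged 0 and 0.0127 TPM.

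In the other direction, ENSMUST00000183090.2, of 399 bases, had 0 reads in all 4 CastB6 libraries and 2583, 2772, 1565 and 1819 TPM in SpretB6 1, 3, 5 and 6. ENSMUST00000117142.2, of 332 bases, had 0 reads in CastB6 and 626, 647, 615 and 686 TPM in SpretB6. By library totals the first was at least 38800-fold and the second at least 8260-fold lower in CastB6, and with TMM scaling at least 36400-fold and 7770-fold (edgeR adjusted p = 4.81e-05 and 1.03e-08). The SpretB6 libraries were all high, with SpretB6 5 and 6 below SpretB6 1 and 3 for the first. MolfB6 and PwkB6 averaged 0 TPM for ENSMUST00000183090.2, and 0.0264 and 0.0662 TPM for ENSMUST00000117142.2. ENSMUST00000121821.2, ENSMUST00000183090.2 and ENSMUST00000117142.2 had at most 2 reads in any cross but the one where they were high. They passed the filter on counts through that cross alone. All 4 transcripts have fractional estimates, so they share reads with other transcripts, and a 0 can come from how those reads were divided.

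**Figure D4:**
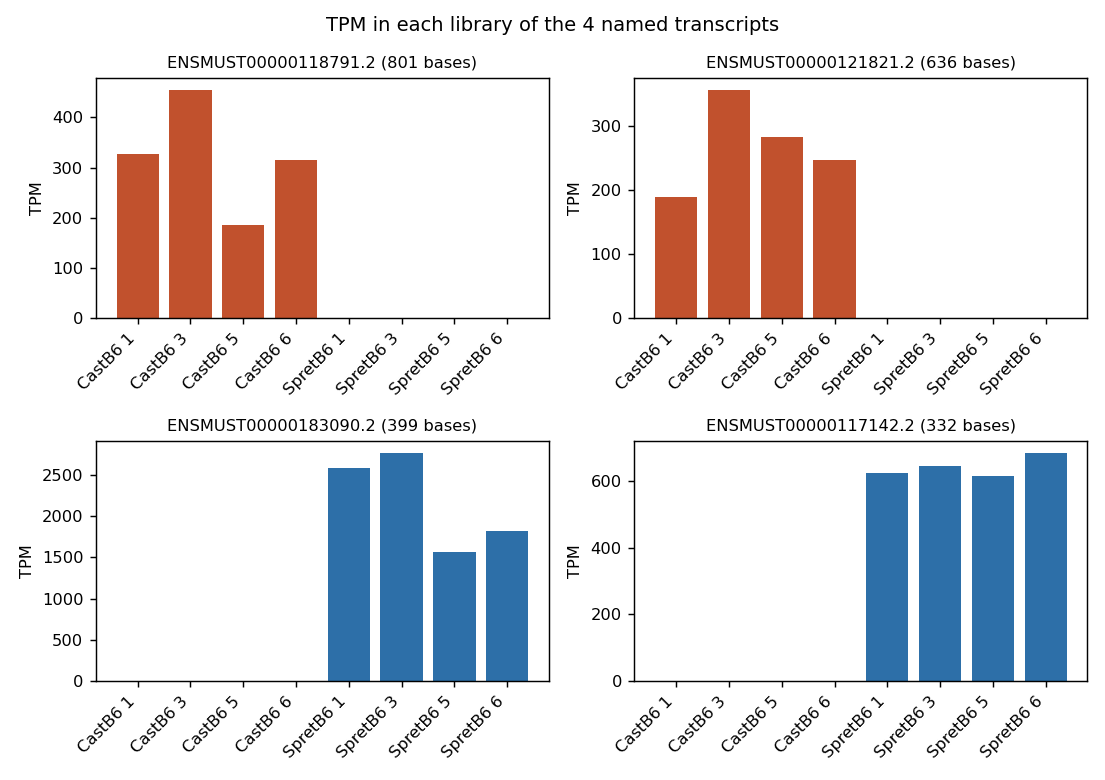
TPM in each of the 8 libraries for the 4 transcripts with the largest folds, the upper pair higher and the lower pair lower in CastB6, with bars from 0 and a scale of its own in each panel. The upper pair shows 186 to 455 TPM in CastB6 and empty SpretB6 libraries, and the lower pair empty CastB6 libraries and 615 to 2772 TPM in SpretB6.

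Among the 8 largest folds in each direction with a mean of at least 10 TPM, all 8 higher in CastB6 measured 336 to 960 bases, and 4 of them were listed at 0 in SpretB6. Of the 8 lower in CastB6, 6 were of at most 1000 bases and all 8 were listed at 0 in CastB6. A transcript of 399 bases had 763, 952, 846 and 811 TPM in CastB6 and 0, 0.554, 0.0753 and 0.456 TPM in SpretB6, or 11.71 ± 0.45 as log2 fold change with its SE (edgeR adjusted p = 4.9e-10). MolfB6 and PwkB6 stood with CastB6 here, at 876 and 750 TPM. A transcript of 573 bases had 0 reads in CastB6 and 236, 215, 236 and 220 TPM in SpretB6, at least 6750-fold lower by library totals and 6340-fold with TMM scaling, and averaged 0 TPM in both MolfB6 and PwkB6. The 334-base and 1074-base transcripts showed the same arrangement, with 0 TPM in all CastB6 libraries, against 247 to 264 and 43.0 to 47.7 TPM in SpretB6. Both were also at 0 TPM in MolfB6 and PwkB6. In 2 of the 8 lower transcripts MolfB6 and PwkB6 were instead higher than SpretB6. That of 351 bases had 0 TPM in CastB6 and 514 to 629 TPM in SpretB6, and averaged 1249 TPM in MolfB6 and 1570 TPM in PwkB6. That of 1891 bases had 0 TPM in CastB6 and 25.7 to 28.6 TPM in SpretB6, and averaged 45.5 TPM in MolfB6 and 59.5 TPM in PwkB6.

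Of the 115 transcripts higher in CastB6 at a mean of 100 TPM or more, 47 exceeded 2-fold and 13 exceeded 8-fold. The most abundant with a log2 fold change of at least 0.58, of 396 bases, had 8034, 5434, 7112 and 7431 TPM in CastB6 and 2585, 2553, 3516 and 3079 TPM in SpretB6, or 1.36 ± 0.19 as log2 fold change with its SE (edgeR adjusted p = 0.000517). The next, of 560 bases, had 5343, 4731, 4884 and 5091 TPM in CastB6 and 2986, 3195, 3164 and 3197 TPM in SpretB6, at 0.78 ± 0.13 (SE; edgeR adjusted p = 0.00178). The 526-base and 1232-base transcripts of this set rose by log2 fold changes of 0.78 and 0.68 in CastB6.

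The abundant transcripts lower in CastB6 were of mixed size of difference. One of 411 bases had 177, 143, 149 and 170 TPM in CastB6 and 3330, 3555, 3522 and 3228 TPM in SpretB6, or -4.31 ± 0.23 as log2 fold change with its SE (edgeR adjusted p = 1.58e-08). A transcript of 518 bases had 96.0, 178, 163 and 156 TPM in CastB6 and 1461, 2014, 2014 and 1971 TPM in SpretB6, at -3.55 ± 0.23 (SE; edgeR adjusted p = 1.28e-07). In the 518-base transcript CastB6 1 lay below the other CastB6 libraries and SpretB6 1 below the other SpretB6 libraries. A transcript of 1192 bases was lower by less than 2-fold, with 703 to 933 TPM in CastB6 and 1644 to 1819 TPM in SpretB6 (log2 fold change -0.91 ± 0.18, SE; edgeR adjusted p = 0.0067).

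Long transcripts showed few complete losses. Over 4000 bases, the largest difference lower in CastB6 with a mean of at least 10 TPM was in a transcript of 4600 bases, with 1.71, 0.159, 0.395 and 0.980 TPM in CastB6 and 27.7, 26.0, 31.5 and 27.1 TPM in SpretB6 (log2 fold change -5.05 ± 0.93, SE; edgeR adjusted p = 0.00406). Next came a transcript of 10838 bases with 7.39, 6.23, 6.53 and 7.79 TPM in CastB6 and 24.8, 21.9, 20.6 and 17.9 TPM in SpretB6 (log2 fold change -1.51 ± 0.11, SE; edgeR adjusted p = 7.69e-07). The largest difference higher in CastB6 in this class was in a transcript of 4832 bases, with 59.2, 75.3, 64.4 and 72.1 TPM in CastB6 and 26.6, 12.4, 34.5 and 14.8 TPM in SpretB6 (log2 fold change 1.74 ± 0.26, SE; edgeR adjusted p = 0.000882). The SpretB6 libraries were spread, with SpretB6 3 and 6 low and SpretB6 1 and 5 higher. A transcript of 3031 bases had 1.73 TPM in CastB6 1, 0 in the other 3 CastB6 libraries and 23.4 to 31.4 TPM in SpretB6 (log2 fold change -5.92 ± 1.48, SE; edgeR adjusted p = 0.0281). Its call was lost with limma voom, with only the 8 libraries, and when any library but CastB6 1 was left out.

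Transcripts with whole estimates in all 16 libraries, within 0.001 of a whole number, were looked at on their own. Of 1335 tested, 131 were called, or 9.81%, with 56 higher and 75 lower in CastB6. Past 8-fold there were 15 higher and 24 lower. A whole estimate is more easily reached with few reads, so this share is not like for like with the 5.96% among the fractional ones. The largest fold lower in CastB6 with a mean of at least 50 reads was in a transcript of 1218 bases, which had 0 reads in CastB6 and 2.43, 2.37, 2.53 and 2.54 TPM in SpretB6, at least 185-fold lower by library totals and 174-fold with TMM scaling (edgeR adjusted p = 0.000367). The largest higher in CastB6, of 3452 bases, had 0.651, 0.882, 0.366 and 0.496 TPM in CastB6 and 0.0136, 0.0100, 0.00542 and 0 TPM in SpretB6 (log2 fold change 6.30 ± 1.07, SE; edgeR adjusted p = 0.00212). The part of read division in these folds was not tested.

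Presence in a single cross was more frequent in SpretB6. Presence was set at 10 or more reads in every library of a cross, and absence at 3 or fewer in every library. By this rule 115 transcripts were present in CastB6 and absent in SpretB6, and 330 were absent in CastB6 and present in SpretB6. No test was made of these counts. The rule asks for reads in every library, which is harder to meet in a cross with more spread. The median SD of log2 CPM was 0.451 in CastB6 and 0.362 in SpretB6, and its part in the counts was not tested. With a library left out the numbers ran from 136 to 172 and from 348 to 415. The numbers were 44 and 157 with presence at 50 reads, and 78 and 185 with absence at 0 reads. The median length was 1357 bases for the 115 and 780.5 bases for the 330, and 17 and 94 of them were under 500 bases. Their median level was 0.936 TPM in CastB6 for the 115 and 2.17 TPM in SpretB6 for the 330. At least 100 TPM was reached by 4 of the 115 and 14 of the 330. Whole estimates in all 16 libraries were found for 9 and 14.

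Large fitted folds, called or not, were more often lower in CastB6. A log2 fold change over 3 was fitted for 1016 tested transcripts and one under -3 for 1503, and 23.0% of the first and 40.3% of the second were called. Of these, with 10 or more reads in every library of the higher cross there were 311 higher and 729 lower in CastB6. Of these sets 65.9% and 77.4% were called, against 6.05% of all those tested. Of tested transcripts with 0 reads in all libraries of a single cross, 781 were empty in CastB6 and 580 in SpretB6, of which 23.0% and 12.9% were called. All these sets were picked by fold or reads in the same libraries that were tested, so their shares called are shaped by the choice.

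The levels in MolfB6 and PwkB6 were set beside the differences, to see which cross of the pair they were nearer. This is a likeness only, and it cannot show in which cross a difference arose. Their levels did not enter the fold change directly, but their libraries entered the filter, the TMM scaling and the spread of the fit. The mean log2 CPM of their 8 libraries was placed on a scale from 0 at the SpretB6 mean to 1 at the CastB6 mean. Over all tested transcripts it lay nearer CastB6 in 49.6%. For the 1674 transcripts higher in CastB6 it lay nearer CastB6 in 54.6%, with a median position of 0.54. That majority turned to 43.1% with only the 8 libraries, 48.1% with the 5 CPM filter, 49.2% with limma voom and 49.1% on log2(TPM + 0.5). For the 1756 lower in CastB6 it lay nearer CastB6 in 71.4%, with a median position of 0.78. Taken singly, MolfB6 lay nearer CastB6 in 72.0% and PwkB6 in 69.8% of the lower transcripts. Among the higher transcripts the values were 58.5% for MolfB6 and 49.6% for PwkB6. The gap between higher and lower transcripts was not present at every level. In the lowest quartile by level, the mean of the 8 libraries lay nearer CastB6 in 47.3% of the higher and 85.2% of the lower transcripts. In the highest quartile these shares were 48.3% and 70.0%. They were alike in the second quartile, at 68.1% and 68.1%, and close in the third, at 61.7% and 63.8%.

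Among the transcripts lower in CastB6, the position was also split by fold and length. Past 8-fold, all 8 MolfB6 and PwkB6 libraries lay on the CastB6 side of the midpoint in 410 of 606 transcripts, or 67.7%, and all 8 lay on the SpretB6 side in 64. For lower transcripts of up to 2-fold the CastB6 side held all 8 in 24.9% and the SpretB6 side in 6.5%, against 10.6% on the SpretB6 side past 8-fold. A wider gap between the crosses makes it easier for all 8 to fall on the same side, so these shares can rise with fold for that reason alone. By their mean, the 8 libraries lay nearer CastB6 in 66.0% of lower transcripts up to 2-fold and in 78.5% past 8-fold. Under 500 bases the CastB6 side held all 8 in 147 of 207 lower transcripts, or 71.0%, against 22.6% of 265 over 4000 bases. Length goes with fold here, since 72.0% of the lower calls under 500 bases and 8.68% of those over 4000 bases were past 8-fold. Among transcripts higher in CastB6 past 8-fold, all 8 lay on the CastB6 side in 69 of 234 and on the SpretB6 side in 57. In the other 108 the 8 libraries did not all lie on the same side. Smaller folds among the higher transcripts differed from this. Up to 2-fold all 8 lay on the CastB6 side in 56 of 719 and on the SpretB6 side in 109. At 2 to 4-fold the numbers were 105 and 47 of 554, and at 4 to 8-fold 42 and 18 of 167. Past 8-fold, the CastB6 side thus held all 8 in most of the lower transcripts but not in most of the higher ones.

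**Figure D5:**
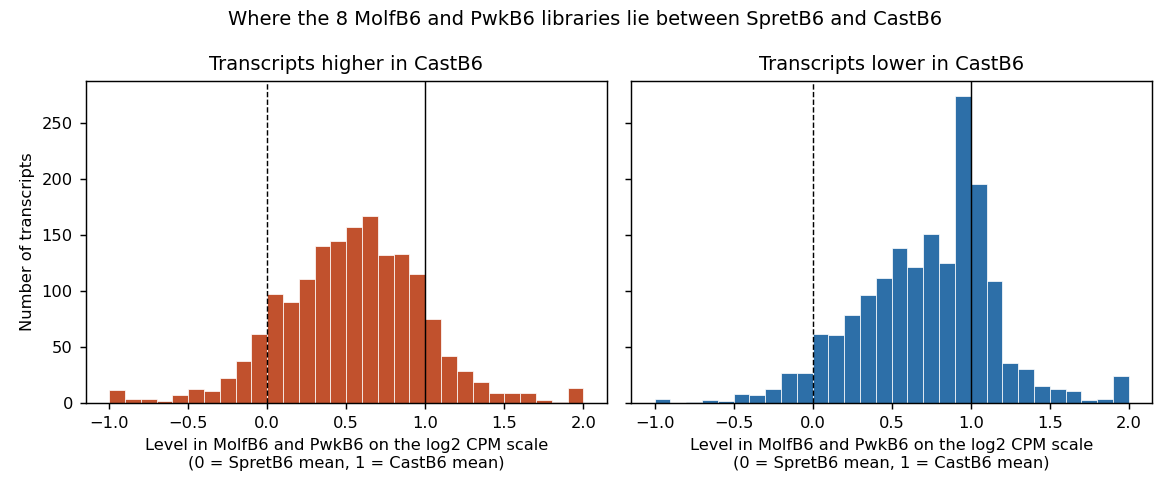
Number of called transcripts by the mean level of the 8 MolfB6 and PwkB6 libraries on the log2 CPM scale, with 0 at the SpretB6 mean (dashed) and 1 at the CastB6 mean (solid), and the end bars also holding values beyond the axis. Transcripts higher in CastB6 spread around a median of 0.54, while those lower in CastB6 peak next to the CastB6 mean, with a median of 0.78.

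The transcripts present in a single cross of the pair overlap with these, since 96 of the 115 and 282 of the 330 were called. Of the 330 absent in CastB6 and present in SpretB6, 160 (48.5%) had at most 3 reads in each of the 8 MolfB6 and PwkB6 libraries, and 26 had at least 10 reads in all 8. Of the 115 present in CastB6 and absent in SpretB6, 21 (18.3%) had at most 3 reads in each of the 8, and 14 had at least 10 in all. The rest had intermediate or mixed counts.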

How the data were processed

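Each of the 16 libraries has 1 table of transcripts. The deposited estimated counts are reads per transcript, divided among transcripts that share them, per the file headers. The deposited TPM values are scaled by effective length to a fixed sum per library, per the file headers. Salmon, DESeq2 and the build mm10 are listed, per the submitters' processing notes. Versions, transcript set, and bias or strand settings: not given in the sources used here. The groups come from the titles.

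Estimated counts were rounded and fitted with edgeR 4.0.16 in R 4.3.3 over all 16 libraries, after filterByExpr (minimum count 10, minimum total 15) and TMM scaling. CastB6 minus SpretB6 was tested by the quasi-likelihood F test with Benjamini-Hochberg adjustment at 0.05. Standard errors come from the fold change and the F statistic. Log2 CPM used a prior count of 2. The functions were tested on simulated data. Single values per library were compared by exact permutation tests over 70 splits. DESeq2 1.42.0 and limma 3.58.1 served as alternatives, limma also on log2(TPM + 0.5). A count of 0 was taken to allow up to 3 reads over the 4 libraries of a cross, scaled by library totals, and this floor covers counting error only.

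The rule for single transcripts took, among calls whose TPM do not overlap, the 8 largest folds per direction with a mean of at least 10 TPM, the 4 most abundant with an absolute log2 fold change of at least 0.58, the 3 largest with whole estimates and a mean of at least 50 reads, and the 2 largest per length class. The members, rule and lists were chosen with earlier results of these data known. The planned gene lists, cell type markers and sums per gene could not be run without gene names.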

Additional observations from a re-analysis of the deposited data

Results flagged for a closer look

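Library measures and the TPM of the transcripts described gave 97 groups of 4 values. In 10 of them the highest or lowest value lay far outside the rest, where a rate of 1 in 20 would give about 4.8. The groups are not independent, and where 3 libraries are listed at 0 any value in the other library stands out. No explanation was tested.

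Of transcripts higher in CastB6, that of 678 bases had 64.6 TPM in CastB6 1 and 9.36 to 13.0 in the other 3 CastB6 libraries. SpretB6 3 had 0.0736 TPM of the 465-base and 0.256 TPM of the 336-base transcript, which were listed at 0 in the other 3 SpretB6 libraries. SpretB6 1 had 2986 TPM of the 560-base transcript, below 3164 to 3197 in the others.

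Of transcripts lower in CastB6, CastB6 5 had 703 TPM of the 1192-base transcript, against 921 to 933 in the other 3 CastB6 libraries. It had 0.0224 TPM of a 997-base transcript listed at 0 in the others. For a 2094-base transcript it had 0.696 TPM, below 1.17 to 1.24, and SpretB6 6 had 87.7 TPM of the same transcript, below 152 to 160 in the other SpretB6 libraries. CastB6 1 had 1.73 TPM of the 3031-base transcript, listed at 0 in the other CastB6 libraries. SpretB6 1 had 1461 TPM of the 518-base transcript, below 1971 to 2014.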

How the results depend on the processing

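DESeq2 called 6256 transcripts, and the replicate block with only the 8 libraries called 797, of which 769 were among the 3430. The replicate block over all 16 libraries called 2529. The labels do not say whether equal numbers in the titles pair libraries of different crosses. Deviations from the cross mean correlated at -0.0617 to -0.0391 for same-numbered CastB6 and SpretB6 libraries, and at -0.0758 to 0.09 for the others. Since each deviation was taken from the mean of its own cross, these correlations are forced to balance each other, and they cannot decide whether the libraries are paired. Leaving out each library gave 2386 to 2811 calls. The percentage of calls higher in CastB6 was 50.6 with DESeq2 size factors, 51.6 with DESeq2, 46.1 with limma voom, 50.9 with the 5 CPM filter, 38.1 with the block on 8 libraries, 35.7 on log2(TPM + 0.5), 60.2 with those values centred (added after seeing the data), and 46.6 to 49.0 with a library left out.

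Median lengths of the higher calls were 2276.5 bases with the 5 CPM filter, 1734.5 with the block on 8 libraries, 1509.0 on TPM, 1880.0 on centred TPM and 2020 to 2115 with a library left out. Those of the lower calls were 1858.0 with DESeq2, 1402.0 with no filter, 2299.0 with the 5 CPM filter, 1199.0 with the block on 8 libraries, 1407.5 on TPM, 1199.0 on centred TPM and 1388 to 1584 with a library left out. Under 500 bases the percentage called was 11.3 with DESeq2, 2.01 with no filter, 22.3 with the 5 CPM filter, 10.6 with only the 8 libraries, 5.39 with the block, 3.44 with the block on 8 libraries, 10.8 on TPM, 11.4 on centred TPM and 5.31 to 5.83 with a library left out. Over 4000 bases it was 12.3 with DESeq2, 3.58 with no filter, 10.3 with the 5 CPM filter, 8.07 with only the 8 libraries, 4.56 with the block, 1.08 with the block on 8 libraries, 4.25 on TPM and 3.83 to 5.08 with a library left out.

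Calls past 8-fold, higher and lower in CastB6, numbered 473 and 856 with DESeq2, 55 and 220 with the 5 CPM filter, 76 and 299 with the block on 8 libraries, 70 and 320 on TPM, 77 and 298 on centred TPM, and 191 to 230 and 520 to 594 with a library left out. MolfB6 and PwkB6 lay nearer CastB6 in 49.2% of the higher calls with limma voom, 48.1% with the 5 CPM filter, 43.1% with only the 8 libraries, 43.8% with the block on 8 libraries, 49.1% on TPM, 51.9% on centred TPM and 54.0% to 59.3% with a library left out. For the lower calls it was 62.2% with DESeq2, 76.5% with limma voom, 74.8% with no filter, 77.0% with only the 8 libraries, 86.2% with the block on 8 libraries, 76.0% on TPM, 76.7% on centred TPM and 67.2% to 74.9% with a library left out.

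The median log2 fold change in the 5 length classes, shortest first, was -0.11, -0.10, -0.08, -0.07 and -0.05 on TPM and 0.05, 0.05, 0.07, 0.08 and 0.10 on centred TPM. With a library left out it ran from -0.05 to 0.00, from -0.06 to -0.01, from -0.04 to 0.00, from -0.05 to -0.01 and from -0.05 to 0.02. Transcripts present in CastB6 and absent in SpretB6 numbered 44 with presence at 50 reads and 136 to 172 with a library left out. Those absent in CastB6 and present in SpretB6 numbered 157 at 50 reads, 185 with absence at 0 reads and 348 to 415 with a library left out. The fragment length difference ran from -2.08 to 0.36 bases with a library left out. TMM scaling, added after seeing the data, moved each lower bound of a fold against an empty cross by less than 1.5 times. The cause of these shifts was not tested. Of the 40 single transcripts, none reversed direction under any alternative run, and 20 of their alternative values no longer passed the threshold, 7 of these with the block on 8 libraries and 4 with limma voom.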
